A study of Mus musculus with 2 samples.

Results

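The genes described here make, or load into synaptic vesicles, the small-molecule transmitters of neurons. They were chosen by symbol, and all 9 were found among the 55416 features of the deposited count tables: Slc17a6, Slc17a7, Slc17a8, Slc32a1, Gad1, Gad2, Slc6a5, Slc18a2 and Slc18a3. They were measured by single-nucleus RNA-seq in whole fetal brain of the mouse, in 1 library labelled wildtype and 1 labelled Cav1 knockout (KO), a loss of the caveolin 1 gene. Neither strain, fetal day, sex, the knockout construct nor the number of brains behind a library is given in the sources used here. Nuclei were kept with at least 500 detected genes and at most 5% mitochondrial UMIs, a UMI being 1 counted RNA molecule. This left 6686 of 9763 barcodes of the wildtype-labelled library, against 6680 of 10811 of the other. Values given in pairs below name the wildtype-labelled library first.

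A neuron's transmitter is set by a small number of genes. Glutamate is taken up into synaptic vesicles by the transporters VGLUT1, VGLUT2 and VGLUT3, encoded by Slc17a7, Slc17a6 and Slc17a8. GABA is made from glutamate by the decarboxylases GAD67 (Gad1) and GAD65 (Gad2), and GABA and glycine share the vesicular transporter VGAT (Slc32a1). Slc6a5 encodes the plasma membrane transporter GlyT2, which refills glycinergic terminals. Slc18a2 encodes VMAT2, which loads dopamine, noradrenaline, serotonin and histamine, and Slc18a3 encodes VAChT, which loads acetylcholine. In the mature brain Slc17a7 marks mainly cortical and hippocampal excitatory neurons, and Slc17a6 those of thalamus, midbrain and hindbrain. Glycine neurons lie mainly in hindbrain and spinal cord.

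The kept nuclei held 17205381 UMIs (wildtype-labelled) and 19878903 UMIs (knockout-labelled), with medians of 2133.5 and 2366 UMIs per nucleus. Cav1 itself gave 71 and 80 UMIs and did not separate the libraries, which are therefore named by their labels. Hox content differed between the libraries: UMIs of the 39 Hox genes, which mark hindbrain and spinal levels, numbered 32 and 554, in 21 and 352 nuclei. With 1 library per label there is no replicate, no difference was tested, and every interval below (95%; exact Poisson for levels, Clopper-Pearson for shares, exact conditional for ratios) covers counting error only. Of the deposited barcode sequences 43 occur in both libraries, 10 of them among kept nuclei of both.

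The stretches before the start sites are printed for the genes that carry most transmitter UMIs. Gad1, Gad2 and Slc32a1 were high in the same clusters and Slc17a6 in others. Slc18a2 was high in clusters of both kinds, the Slc17a6-high cluster 7 and the Gad2-high cluster 14 among them. Each run holds the 250 bases before a start in RefSeq's table on GRCm38.p6, read 5′ to 3′. Capitals mark matches, on either strand, to 2 motifs: TAATTA, a homeodomain core, and CAGATG, an E-box bound by Neurod and Neurog factors.
Gad1 (chr2:70561879-70562128, plus strand): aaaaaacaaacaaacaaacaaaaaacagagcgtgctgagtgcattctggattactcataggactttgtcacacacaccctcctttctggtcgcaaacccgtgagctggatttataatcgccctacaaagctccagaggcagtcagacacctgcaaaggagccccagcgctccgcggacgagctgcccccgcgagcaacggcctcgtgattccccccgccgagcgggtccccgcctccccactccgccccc
Gad2 (chr2:22622077-22622326, plus strand): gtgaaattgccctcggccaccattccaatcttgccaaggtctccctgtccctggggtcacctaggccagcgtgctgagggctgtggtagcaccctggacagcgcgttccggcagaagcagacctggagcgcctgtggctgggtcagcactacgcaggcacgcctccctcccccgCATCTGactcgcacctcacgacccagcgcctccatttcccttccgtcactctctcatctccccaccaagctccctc
Slc32a1 (chr2:158610508-158610757, plus strand): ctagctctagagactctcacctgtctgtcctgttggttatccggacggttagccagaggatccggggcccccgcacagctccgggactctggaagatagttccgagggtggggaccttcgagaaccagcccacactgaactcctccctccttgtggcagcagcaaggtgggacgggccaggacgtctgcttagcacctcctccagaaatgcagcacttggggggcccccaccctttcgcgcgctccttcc
Slc17a6, first start (chr7:51621580-51621829, plus strand): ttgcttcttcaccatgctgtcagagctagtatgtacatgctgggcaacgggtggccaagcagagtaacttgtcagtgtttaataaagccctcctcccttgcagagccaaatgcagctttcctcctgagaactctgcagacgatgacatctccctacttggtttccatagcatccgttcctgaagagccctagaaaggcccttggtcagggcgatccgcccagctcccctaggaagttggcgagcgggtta
Slc17a6, second start (chr7:51624387-51624636, plus strand): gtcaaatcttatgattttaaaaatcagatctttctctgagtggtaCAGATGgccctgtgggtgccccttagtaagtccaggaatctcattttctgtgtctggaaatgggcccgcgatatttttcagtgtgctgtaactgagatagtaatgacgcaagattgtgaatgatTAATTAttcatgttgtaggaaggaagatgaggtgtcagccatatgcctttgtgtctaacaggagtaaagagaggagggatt
Slc18a2 (chr19:59260628-59260877, plus strand): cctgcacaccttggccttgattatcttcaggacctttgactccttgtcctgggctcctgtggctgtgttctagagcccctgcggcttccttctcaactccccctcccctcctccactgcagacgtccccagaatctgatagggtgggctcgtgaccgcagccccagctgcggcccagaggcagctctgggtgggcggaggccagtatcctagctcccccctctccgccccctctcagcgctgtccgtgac

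No match to the 2 motifs was found in the Gad1, Slc32a1, Slc18a2 and first Slc17a6 runs. The Gad2 run held CAGATG or its reverse complement 1 time, 76 bases before the start. The second Slc17a6 run held TAATTA at 81 and the CAGATG motif at 205 bases before the start. Among all 32851 runs of this length in the table, TAATTA occurred in 4.84% and CAGATG in 14.4%. A match is a match of letters, and a missing match says only that these letters are not in this window.

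In the GENCODE annotation of GRCm39, Gad1 (ENSMUSG00000070880) lies on chromosome 2 from 70383416 to 70432372, Gad2 (ENSMUSG00000026787) on chromosome 2 from 22511862 to 22583886 and Slc32a1 (ENSMUSG00000037771) on chromosome 2 from 158452605 to 158464883. Slc17a6 (ENSMUSG00000030500), Slc17a7 (ENSMUSG00000070570) and Slc6a5 (ENSMUSG00000039728) share chromosome 7, from 51271434 to 51320867, from 44813305 to 44825644 and from 49559894 to 49613604. Slc17a8 (ENSMUSG00000019935) lies on chromosome 10 from 89409882 to 89457326, and Slc18a2 (ENSMUSG00000025094) on chromosome 19 from 59249238 to 59284695. Slc18a3 (ENSMUSG00000100241), on chromosome 14 from 32184395 to 32186807, lies within Chat on the same strand. Among the counted features, opposite-strand genes overlap Slc32a1 (Gm14204 and Gm14205), Gad1 (Gad1os), Slc18a2 (Pdzd8 and Gm29261) and Slc18a3 (Litchi). Whether counting used the strand is not given in the sources used here, so reads of each such pair cannot be told apart with certainty.

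Gad2 was the most abundant member and Slc18a3 the least. As CPM (UMIs per 1000000 UMIs of the library) divided by kilobases of annotated exon, Gad2 stood at 33.7 with the wildtype label and at 30.2 with the knockout label, and Slc17a6 at 19.7 and 21.5. Gad1 followed at 9.42 and 9.18, Slc18a2 at 7.27 and 6.76, Slc32a1 at 4.66 and 6.38 and Slc17a7 at 2.08 and 1.33, all per kilobase of exon. Slc17a8, Slc6a5 and Slc18a3 stayed under 1 CPM per kilobase of exon in both libraries. The assay counts 3′ ends, so division by length is a rough scale.

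**Figure D1:**
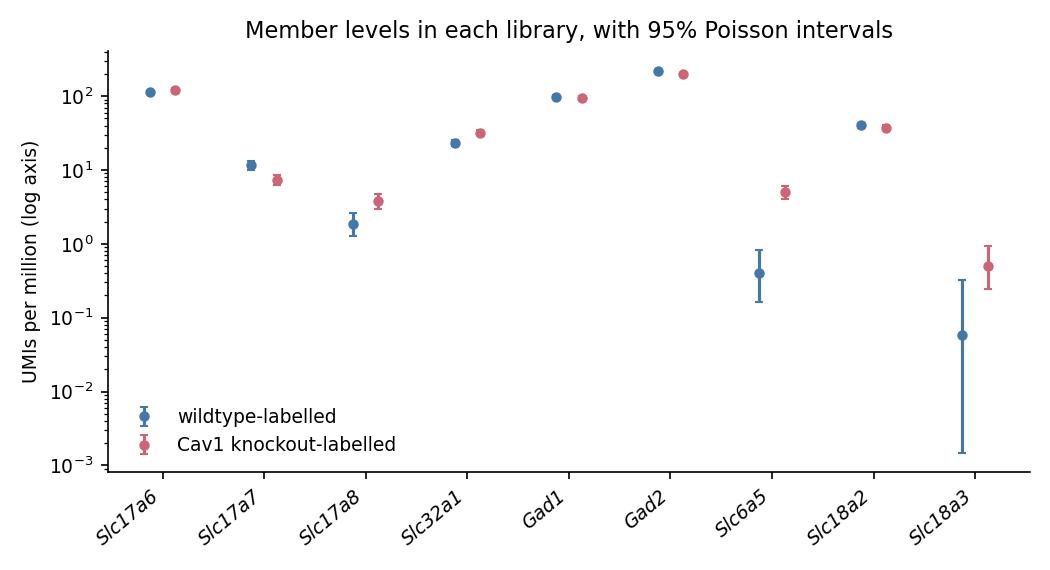
CPM (log axis) of the 9 genes in the wildtype-labelled (blue) and knockout-labelled (red) library; points are library sums and bars 95% Poisson intervals of counting error. Slc17a6, Gad1, Gad2 and Slc18a2 lie almost level, whereas Slc6a5 stands at 0.407 against 5.03.

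GABA genes were the most widely detected, and 48.9% and 48% of nuclei held no UMI of any member. Gad1, Gad2 or Slc32a1 was found in 32.3% (31.2 to 33.5) of nuclei labelled wildtype, against 33% (31.9 to 34.1) of those labelled knockout. A glutamate transporter was found in 19.8% (18.9 to 20.8) and 21.7% (20.7 to 22.7). The GABA shares differed by 0.658 percentage points, with an interval of −0.932 to 2.25, and the glutamate shares by 1.87 points (0.499 to 3.25). The knockout-labelled nuclei were deeper. When each nucleus was thinned to 1000 UMIs, leaving out 846 and 1111 shallower nuclei, the glutamate shares were 9.85% and 10.4%. Their difference was then 0.569 points (−0.538 to 1.68), which is not detectable at equal depth.

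UMIs of Slc18a2, the monoamine transporter gene, occurred in 7.58% (6.96 to 8.24) and 7.84% (7.21 to 8.52). Slc6a5, the glycine marker, was found in 6 wildtype-labelled nuclei, 0.0897% (0.0329 to 0.195), and in 69 knockout-labelled nuclei, 1.03% (0.805 to 1.31). Slc18a3, the acetylcholine marker, was found in 1 and 10 nuclei. These shares count nuclei with a UMI and not neurons that use a transmitter, because few UMIs were caught per nucleus. Nuclei with Gad2 held on average 2.22 and 2.34 Gad2 UMIs, and nuclei with Slc32a1 held 1.07 and 1.16 Slc32a1 UMIs.

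The members were also counted in nuclei that should lack them, those of 4 non-neural clusters with fibroblast, endothelial, mural and macrophage markers. In these 214 wildtype-labelled and 230 knockout-labelled nuclei, with median depths of 2485.5 and 2857.5 UMIs, Gad2 was found in 15.4% and 12.6%. Slc17a6 was found there in 7.94% and 11.3%, Slc18a2 in 7.01% and 5.22% and Slc32a1 in 4.67% and 5.65%. Slc17a7 was found there in 1.4% and 0.87%. Such shares are not negligible, and shares at or below them are not told apart from background here. Of the non-neural nuclei, 18.2% and 26.5% were among the 8% of each library with the highest doublet scores. Without those, the shares were 10.3% and 6.51% for Gad2 and 6.86% and 4.14% for Slc17a6. The part of doublets and of free RNA in the rest was not tested. The non-neural shares used below keep the highest doublet scores unless stated.

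Slc17a6 was the most abundant vesicular glutamate transporter gene, and its level differed by region. Nuclei were placed by the region list with at least 2 UMIs and more than any other list, and 48.1% of nuclei were placed. Slc17a6 was highest in nuclei with midbrain excitatory markers (Tfap2d and 3 Pou4f genes), at 305 CPM (253 to 364) in 124 wildtype-labelled and 265 CPM (222 to 315) in 143 knockout-labelled nuclei. In nuclei with thalamic markers (Tcf7l2, Gbx2, Slitrk6) it stood at 178 CPM (163 to 193; 799 nuclei) and 213 CPM (198 to 229; 765 nuclei). In pallial nuclei, marked by a list that includes Neurod6, Tbr1, Emx1 and Fezf2, it stood at 117 CPM (107 to 127; 1424 nuclei) and 135 CPM (124 to 146; 1121 nuclei). The order midbrain, thalamic, pallial was the same in both libraries, and within each library the intervals of neighbours did not overlap, except those of midbrain and thalamic nuclei in the knockout-labelled one. In nuclei with Dlx and Lhx6 markers, which label inhibitory forebrain neurons, Slc17a6 was found in 5.88% and 6.62% of nuclei, below the non-neural shares. Without the highest doublet scores the non-neural shares were 6.86% and 4.14%, and the knockout-labelled one then lay below 6.62%. Gata2, Gata3, Tal1 and Tal2 mark inhibitory neurons of midbrain and diencephalon, and nuclei placed by them had Slc17a6 in 1 of 70 and 4 of 89 cases.

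**Figure D2:**
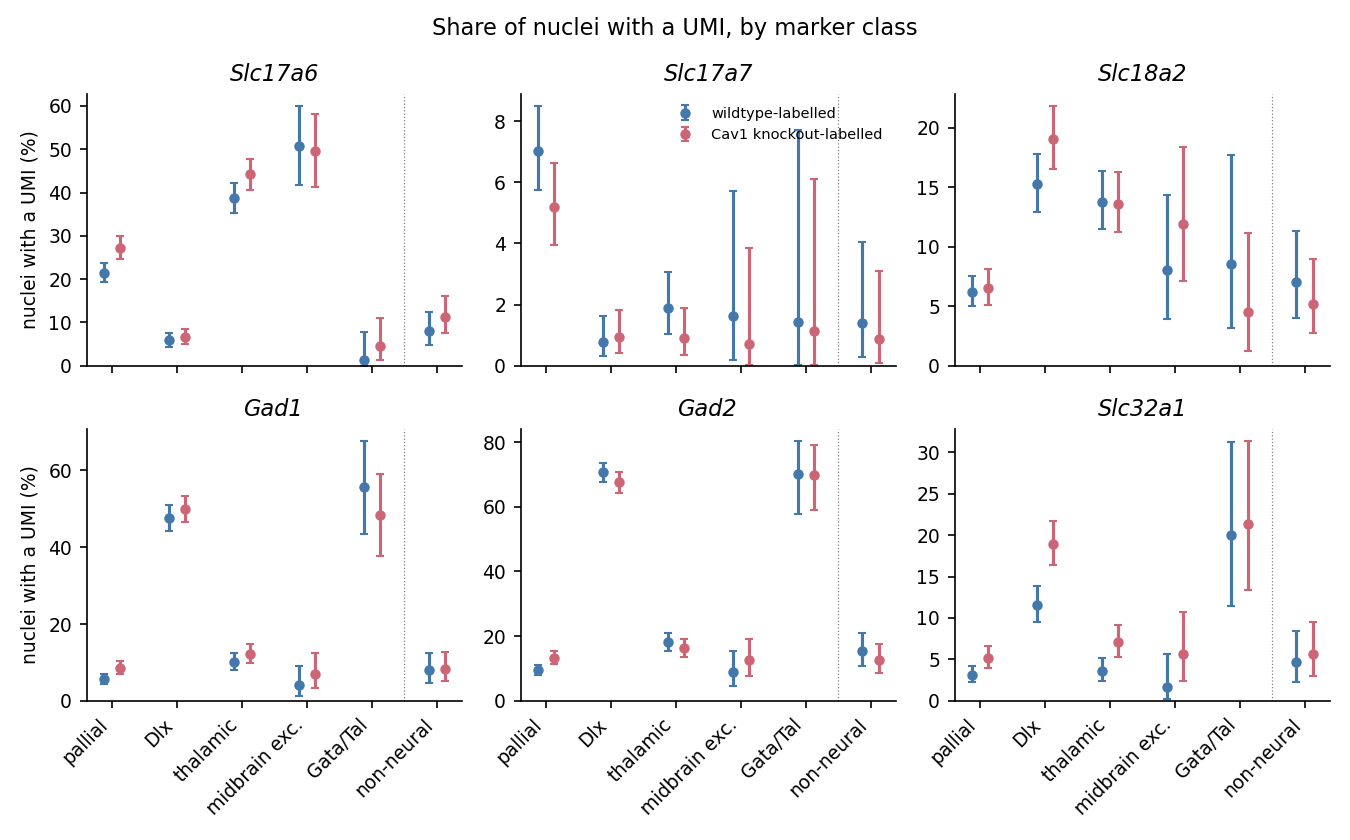
Percent of nuclei with at least 1 UMI of 6 members in nuclei placed by region markers and in non-neural clusters (right of the dotted line), with Clopper-Pearson 95% intervals; blue is wildtype-labelled, red knockout-labelled, and the axes differ. Slc17a6 is high in midbrain and thalamic nuclei, Gad1 and Gad2 in Dlx and Gata/Tal nuclei, and Slc17a7 in pallial nuclei at 7.02% and 5.17%.

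Slc17a7, the cortical vesicular glutamate transporter of the mature brain, was sparse and pallial. Pallial nuclei held 111 of the 198 wildtype-labelled UMIs and 69 of the 147 knockout-labelled UMIs. It was found in 7.02% (5.75 to 8.48) and 5.17% (3.95 to 6.64) of pallial nuclei, above the 1.4% and 0.87% of the non-neural clusters. In Dlx-marked nuclei its shares were 0.791% and 0.929%, at or near that background.

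Nuclei were also clustered without using the members, which gave 24 clusters, and levels over both libraries are given for them as a description. Slc17a6 reached 351 CPM in cluster 3 (led by 2600014E21Rik and Unc5d), 332 CPM in the midbrain excitatory neuron-like cluster 12, 320 CPM in the thalamic neuron-like cluster 7, 306 CPM in the Cajal-Retzius cell-like cluster 8 and 283 CPM in the Eomes-led intermediate progenitor-like cluster 4. By contrast, it stood at 22.3 CPM in cluster 5 and 48.8 CPM in cluster 17, both cortical excitatory neuron-like. Cluster 5 was led by Dync1i1 and held Sox5. In cluster 5 Slc17a7 reached 32.7 CPM, and it made up 59.4% (50.5 to 67.8) of the UMIs of the pair. By library that share was 73.1% (60.9 to 83.2) and 45.5% (33.1 to 58.2). Slc17a6 itself was found in 3.9% and 6.98% of cluster 5 nuclei, below the non-neural 7.94% and 11.3%. Without the highest doublet scores the non-neural shares were 6.86% and 4.14%. The pair thus rests there on Slc17a6 levels at or near background. In cluster 17 Slc17a7 made up 31.6% (22.4 to 41.9), from 39.1% (27.1 to 52.1) and 16.1% (5.45 to 33.7) in the separate libraries, and in the thalamic and midbrain clusters 1.07% (0.349 to 2.48) and 1.09% (0.4 to 2.35).

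Slc17a8, encoding the transporter found in the mature brain in some serotonin, cholinergic and inhibitory neurons, gave 32 and 75 UMIs in 24 and 44 nuclei. Its UMIs were concentrated, with up to 9 in 1 knockout-labelled nucleus and 18 of the 75 in the 3 highest nuclei. Of the knockout-labelled nuclei with it, 25 of 44 lay in cluster 6, the largest cluster, which was led by Snhg11 and kept no name. In the 89 Gata/Tal nuclei of that library 17 UMIs were counted, all from 4 nuclei, against 1 in the 70 of the other library.

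**Figure D3:**
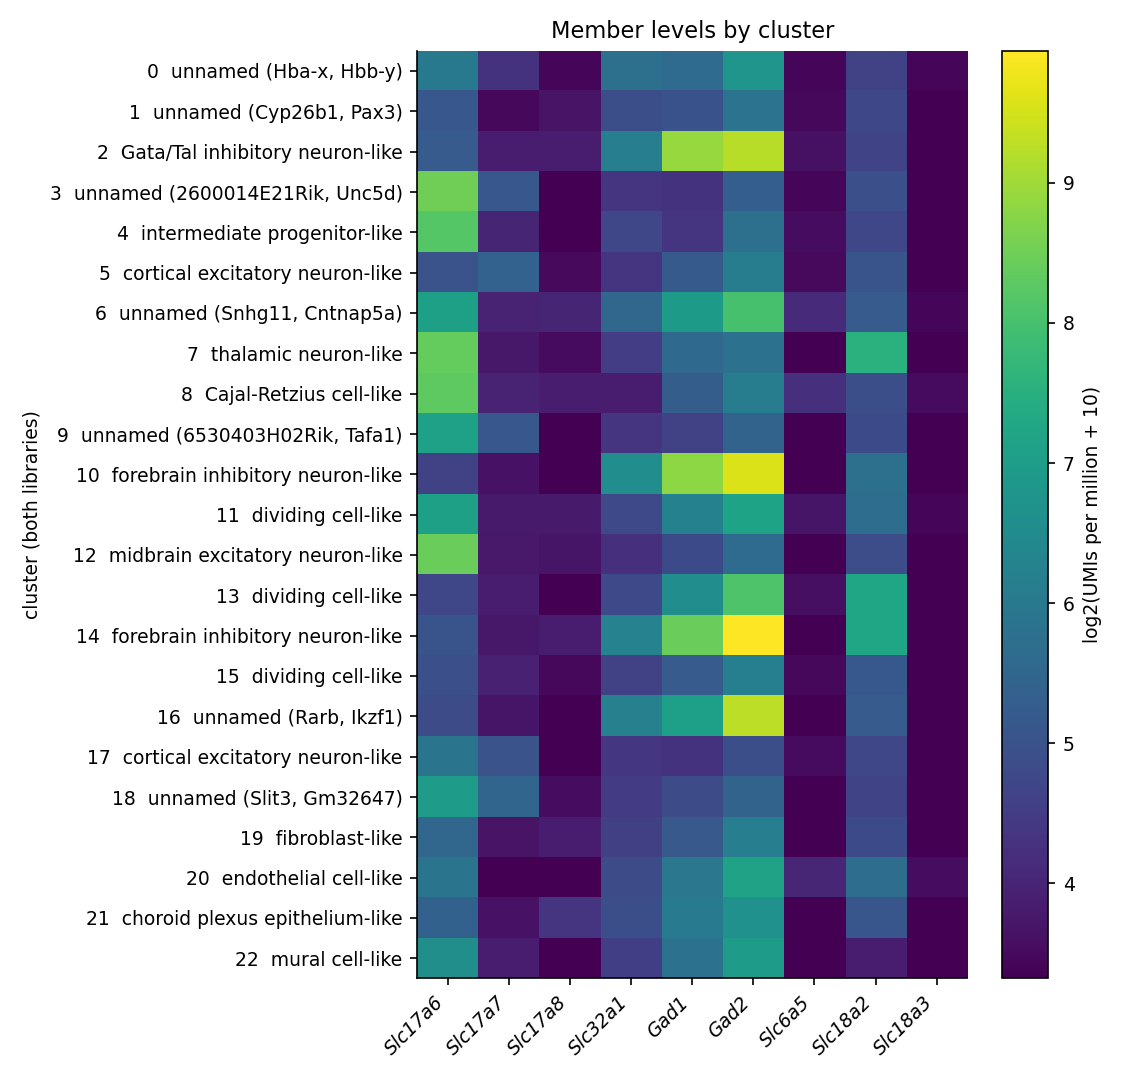
Levels of the 9 members, as log2(CPM + 10), in the 23 clusters of at least 50 nuclei, both libraries summed; names follow marker lists and unnamed clusters show their 2 leading genes. Slc17a6 is brightest in clusters 3, 4, 7, 8 and 12, Gad1 and Gad2 in clusters 2, 10, 14 and 16, and Slc18a2 in clusters 7, 13 and 14.

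Gad1 and Gad2, the GABA-synthesizing enzymes, followed the Dlx and Gata/Tal markers. In Dlx-marked nuclei Gad2 was found in 70.6% (67.5 to 73.6) of 885 and 67.6% (64.4 to 70.7) of 861 nuclei. In Gata/Tal nuclei it was found in 70% (57.9 to 80.4) and 69.7% (59 to 79). The intervals of the 2 inhibitory classes overlapped. In pallial nuclei, Gad2 was found in 9.55% and 13.2%, and in thalamic nuclei in 18.1% and 16.2%, at or near the non-neural 15.4% and 12.6%. GABA genes as a group were found in 82.9% and 81.7% of Dlx-marked nuclei and in 88.6% and 82% of Gata/Tal nuclei.

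The balance of the 2 enzymes differed between inhibitory clusters. Gad1 made up 44.4% (41.2 to 47.7) of Gad1 and Gad2 UMIs in the Gata/Tal inhibitory neuron-like cluster 2, led by Pax7 and Otx2os1, and 36.7% (34.7 to 38.7) in the Lhx6-led forebrain inhibitory neuron-like cluster 10. It made up 25.5% (23.4 to 27.8) in the forebrain inhibitory neuron-like cluster 14, which had Drd2 and Syt6 among its leading genes. In cluster 16, unnamed and led by Rarb and Ikzf1, it made up 16.8% (13.6 to 20.3). These 4 counting intervals did not overlap. The order held in each library alone, at 45.5%, 37.5%, 22.9% and 13.1% in the first and at 43%, 35.7%, 28.8% and 22.9% in the second, where the intervals of clusters 2 and 10 overlapped, as did those of clusters 14 and 16. Within the low levels of the non-neural clusters the share ranged from 28.3% in the endothelial cell-like cluster 20 to 34.2% in the microglia or macrophage-like cluster 23, close to the 31.1% of the large cluster 6. Gad1os lies opposite part of Gad1 and stood at 38.3 CPM in cluster 2 beside 476 CPM of Gad1.

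**Figure D4:**
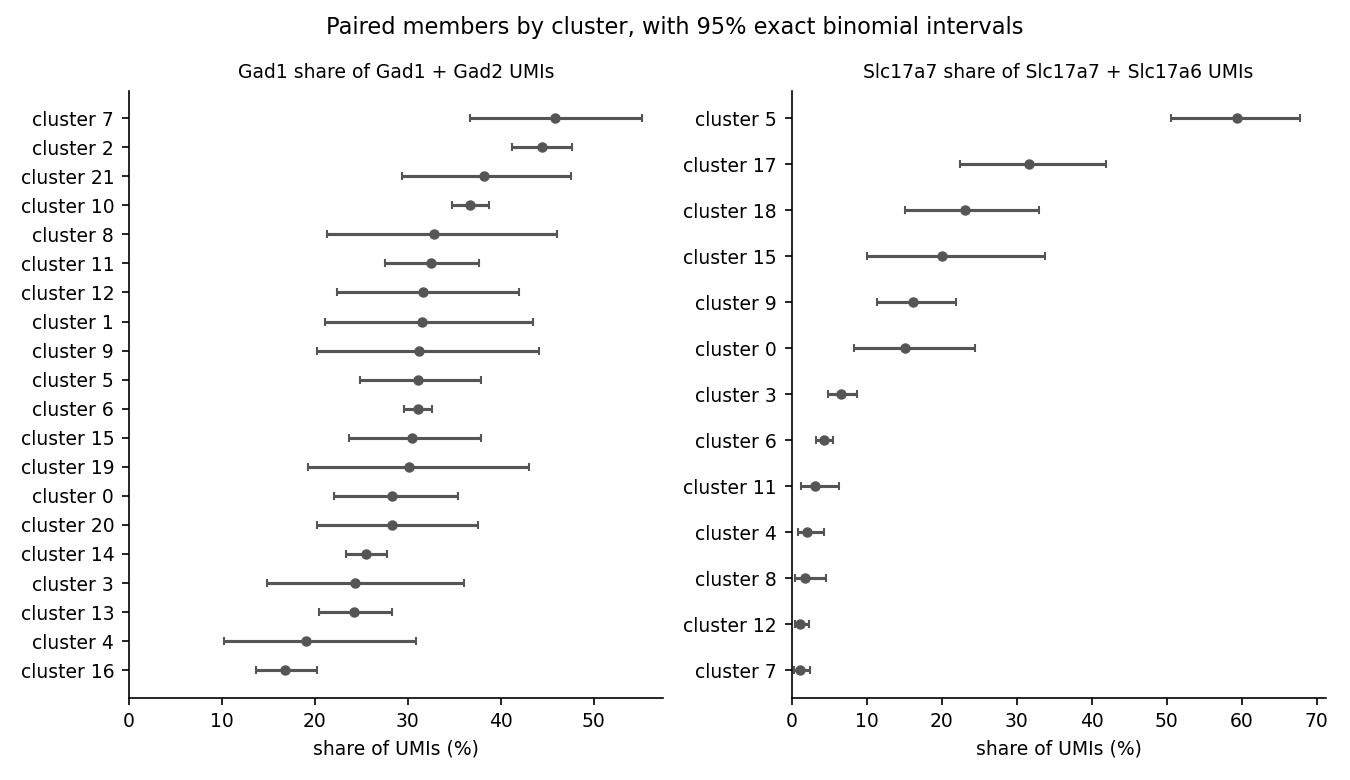
Left, Gad1 as a percent of Gad1 and Gad2 UMIs; right, Slc17a7 as a percent of Slc17a7 and Slc17a6 UMIs; each point is a cluster with at least 50 UMIs of the pair, both libraries summed, with its Clopper-Pearson 95% interval. Gad1 stands at 44.4% in cluster 2 and 16.8% in cluster 16, with cluster 7 at 45.8% on few UMIs, and Slc17a7 stands highest in the cortical clusters 5 and 17.

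Slc32a1, the vesicular GABA and glycine transporter gene, was detected far less often than the enzymes. Among nuclei with Gad1 or Gad2 it was found in 11.4% (10.1 to 12.9) of 2015 and 19.3% (17.6 to 21.1) of 2053 nuclei. Among nuclei without either enzyme the shares were 3.13% and 3.24%. The enzymes went together more often: of nuclei with Gad1, 69.2% and 66.8% also held Gad2, against 17.7% and 16.4% of nuclei without Gad1.

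Between the libraries, Slc32a1 was higher in the knockout-labelled one, with 402 UMIs, 23.4 CPM (21.1 to 25.8), against 635 UMIs, 31.9 CPM (29.5 to 34.5), and a log2 ratio of 0.45 (0.27 to 0.64). Among nuclei thinned to a depth of 1000 UMIs, 2.35% (1.97 to 2.77) held it under the wildtype label and 3.34% (2.88 to 3.85) under the knockout label. In Dlx-marked nuclei it stood at 48.3 and 73.9 CPM, a log2 ratio of 0.62 (0.27 to 0.97), and in the forebrain inhibitory neuron-like clusters 10 and 14 the ratios were 0.71 (0.25 to 1.18) and 0.83 (0.14 to 1.54). In the Gata/Tal cluster 2, with 59.5 and 62.4 CPM, the ratio was 0.07 (−0.77 to 0.89). The difference was not particular to forebrain inhibitory nuclei. At levels near background, the ratio was 0.80 (0.17 to 1.45) in thalamic and 0.54 (−0.00 to 1.10) in pallial nuclei. In the large cluster 6 it was 0.42 (0.08 to 0.77). Some clusters ran the other way, such as the shallow cluster 0 at −0.70 (−1.50 to 0.09). The Dlx-marked difference ran opposite to those of the enzymes in the same nuclei, where Gad1 had a ratio of −0.18 (−0.33 to −0.03) and Gad2 of −0.12 (−0.22 to −0.02). Gm14204, on the opposite strand, was not higher, with 251 and 215 CPM in Dlx-marked nuclei and a ratio of −0.23 (−0.40 to −0.06). In the same nuclei the median depth was 1952 and 2277 UMIs. In the barcodes left out by the filters Slc32a1 stood at 53.7 and 51 CPM. That is above the Dlx-marked level in the wildtype-labelled library and below it in the other.

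Among members with at least 100 UMIs, Slc6a5 differed most between the libraries. It gave 7 UMIs, 0.407 CPM (0.164 to 0.838), under the wildtype label and 100 UMIs, 5.03 CPM (4.09 to 6.12), under the knockout label, a ratio of 12.4-fold (5.78 to 31.5). In the non-neural clusters it was found in 0 of 214 nuclei, which allows a share of up to 1.4%, and in 4 of 230 nuclei, the latter 1.74% (0.476 to 4.39) and 1.18% without the highest doublet scores. The share of 1.03% over all knockout-labelled nuclei, and those of 1.43% in pallial, 0.915% in thalamic and 0.465% in Dlx-marked nuclei of that library, lie below 1.74% and are not told apart from background. After thinning to 1000 UMIs it was found in 0 of 5840 wildtype-labelled nuclei, where 3 counts would be a share of 0.0514% at that depth (6 nuclei held it before thinning), and in 23 of 5569 knockout-labelled nuclei, 0.413% (0.262 to 0.619). Hox UMIs moved with it: 28 of the 69 knockout-labelled nuclei with Slc6a5 held a Hox UMI, 40.6%, against 5.27% of all nuclei of that library. Slc6a5 was found in 7.95% of the 352 knockout-labelled nuclei with a Hox UMI and in 0.648% of the 6328 without. Depth was not matched in these shares: knockout-labelled nuclei with Slc6a5 had a median of 5396 UMIs, against 2366 over that library. In the 64 nuclei placed by Hox genes Slc6a5 was found in 21.9% (12.5 to 34), while only 2 wildtype-labelled nuclei could be placed so. Without any Hox-positive nucleus 6 and 56 Slc6a5 UMIs remained, so that a difference in tissue content and a difference within cells cannot be told apart.

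Nuclei with Slc6a5 often held GABA genes as well. Of the 69 knockout-labelled nuclei, 50 held a GABA gene, 72.5% (60.4 to 82.5), against 32.6% of the nuclei without Slc6a5. Their median depth was 5396 UMIs, and depth was not matched here. Within cluster 6 a GABA gene was found in 37 of 45 nuclei with Slc6a5, 82.2% (67.9 to 92), and in 53.9% (51.3 to 56.6) of the 1370 without. Of the 69, 23 held Slc32a1, which loads glycine too. A glutamate transporter was found in 18 of them, 26.1%, against 21.6% of the others. By cluster, 45 of the 69 lay in cluster 6, where Slc6a5 stood at 0.922 and 10.3 CPM.

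Slc18a2 was not limited to monoamine-making nuclei. It reached 178 CPM in the thalamic neuron-like cluster 7, 142 CPM in the forebrain inhibitory neuron-like cluster 14 and 141 CPM in the dividing cell-like cluster 13, in which 7 of 9 forebrain inhibitory markers were also raised. In the Lhx6-led cluster 10 it stood at 44.1 CPM and in the midbrain excitatory neuron-like cluster 12 at 19.5 CPM. UMIs of Slc18a2 occurred in 31.3% and 33.3% of cluster 7 nuclei, far above the 7.01% and 5.22% of the non-neural clusters. Both libraries showed the pattern, with 171 and 187 CPM in cluster 7 and 137 and 146 CPM in cluster 14. The opposite-strand neighbour Pdzd8 varied much less, from 22.1 CPM in cluster 10 to 53.6 CPM in cluster 13, and stood at 47 CPM in cluster 7 and 40.3 CPM in cluster 14, and Gm29261 gave 3 UMIs in all.

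The genes that make monoamines were rarely detected in nuclei with Slc18a2. Th, tyrosine hydroxylase of dopamine and noradrenaline synthesis, was found in 0.592% and 0.763% of nuclei with Slc18a2, from 3 and 4 nuclei, against 0.146% and 0.292% of those without. Ddc, the decarboxylase of dopamine and serotonin synthesis, was found in 2.17% and 3.05%, against 0.728% and 1.01%. Both were thus rare, and more frequent with Slc18a2 than without it at unmatched depth. Tph2, of serotonin synthesis, was found in 0 of 507 and 2 of 524 of them. GABA genes were found in 47.5% and 49% of nuclei with Slc18a2, against 31.1% and 31.6% of nuclei without it, and at 1000 UMIs per nucleus in 30.9% and 29.8% against 22.8% and 22.5%. Nr4a2, a factor of dopamine neurons also used in other neurons, was found in 7.69% and 7.63%, against 4.18% and 4.45%. Over all nuclei Slc18a2 gave 40.5 CPM (37.6 to 43.6) against 37.6 CPM (35 to 40.4), and the interval of its log2 ratio of −0.11 ran from −0.26 to 0.04.

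Slc18a3, nested in Chat, gave 1 and 10 UMIs, each in a different nucleus, a ratio of 8.66 with a counting interval of 1.23 to 376. Chat, which makes acetylcholine, gave 4 and 31 UMIs, a log2 ratio of 2.75 (1.25 to 4.71). Of the 10 knockout-labelled nuclei with Slc18a3, 3 held Chat, 4 held the choline transporter gene Slc5a7 and 4 held a Hox UMI. At this depth Slc18a3 gave too few UMIs to describe by region.

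A GABA gene was found at a lower share among nuclei with a glutamate transporter than among the rest. Among the former it was 18.9% (16.9 to 21.2) of 1325 and 23.9% (21.7 to 26.2) of 1449 nuclei. Among the latter it was 35.6% and 35.5%. The nuclei with both, 251 and 346 or 3.75% and 5.18% of all, were deep: their median depths were 3581 and 5478 UMIs, against 2679 and 3021 with a glutamate gene only and 2157.5 and 2496 with a GABA gene only. Among them 25.9% and 16.2% were in the highest-scoring 8% for doublets. Thinned to 1000 UMIs, nuclei with both made up 0.805% (0.592 to 1.07) and 0.88% (0.652 to 1.16), and the libraries no longer stood apart. The GABA share in glutamate-positive nuclei was then 8.17% and 8.45%, against 24.7% and 24.4% in the rest. The non-neural share of GABA genes at that depth was 7.77% and 8.22%, so that co-detection at equal depth lay near the background level.

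**Figure D5:**
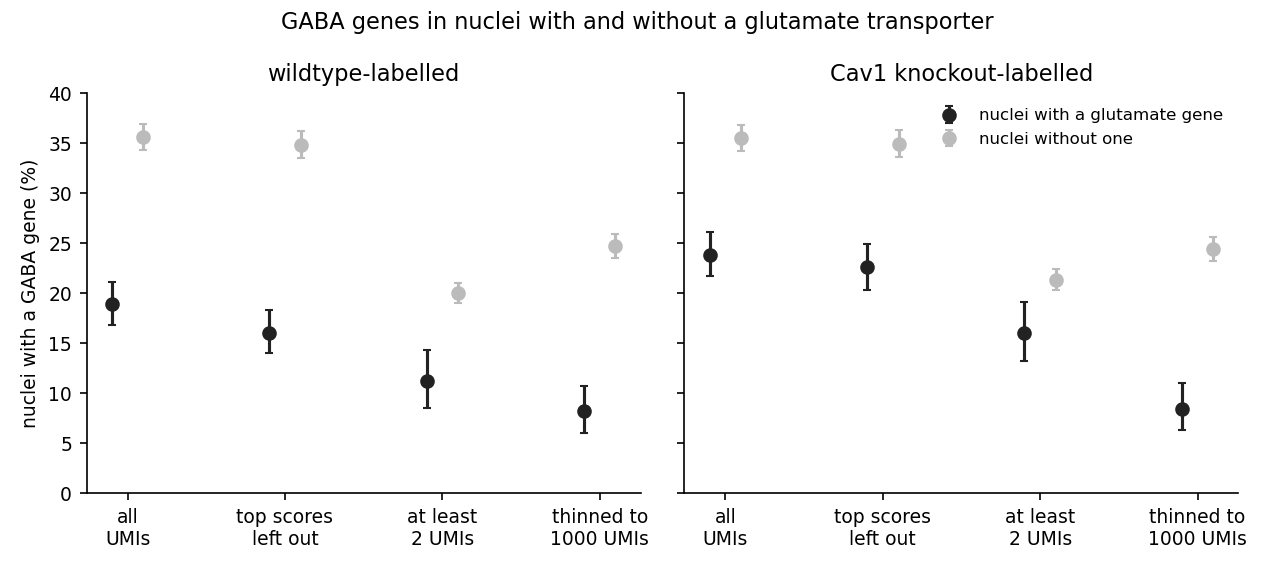
Percent of nuclei with a GABA gene among nuclei with (black) and without (grey) a glutamate transporter, in each library, for all UMIs, without the highest doublet scores, counting only nuclei with at least 2 UMIs of a class, and thinned to 1000 UMIs; bars are Clopper-Pearson 95% intervals. The black points lie below the grey ones in every setting and fall to 8.17% and 8.45% after thinning.

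Co-detection by class of nuclei followed the same measure. In Dlx-marked nuclei 5.88% and 5.81% held both kinds, in thalamic nuclei 7.38% and 11.5% and in pallial nuclei 3.72% and 6.78%. Cluster 6, the largest cluster, with a median of 3500 UMIs, held both in 7.84% (6.11 to 9.87) of 842 and 12% (10.4 to 13.8) of 1415 nuclei. That cluster was mixed, with a GABA gene alone in 43.5% and 42.8% and a glutamate transporter alone in 22.9% and 21.2%.

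Read over all nuclei, the members differed little between the libraries apart from the sparse ones and Slc32a1 (1.37-fold, 1.2 to 1.55). Of the 8 members with at least 100 UMIs over both libraries, 2, Slc6a5 and Slc17a8, were higher under the knockout label by 1.5-fold or more, where 2.12% of the 15528 genes with that many UMIs were. Slc17a7 alone was at least 1.5-fold lower, where 0.605% of those genes were. Its 1.56-fold was 1.44-fold without the highest doublet scores and 1.49-fold without nuclei with a Hox UMI, which ends that call. The median log2 ratio was 0.04 over these members and −0.01 over all genes. Slc17a8 had a ratio of 1.02 (0.41 to 1.67), with 1.86 against 3.77 CPM. Slc17a7 had a ratio of −0.64 (−0.96 to −0.32), with 11.5 CPM (9.96 to 13.2) against 7.4 CPM (6.25 to 8.69). After thinning to that depth of 1000 UMIs, 1.2% (0.936 to 1.51) and 0.611% (0.423 to 0.852) of nuclei held it.

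The Slc17a7 difference was present inside the pallial class, with 25.5 and 16.2 CPM and a ratio of −0.66 (−1.11 to −0.21), while pallial nuclei made up 21.3% and 16.8% of the libraries. In cluster 5 the levels were 38.3 and 26.3 CPM, a ratio of −0.54 (−1.25 to 0.14). Slc17a6 stood in cluster 5 at 14.1 and 31.6 CPM, a ratio of 1.17 (0.31 to 2.07), and Gad2 at 47.7 and 71.1 CPM, a ratio of 0.58 (0.08 to 1.08). Both genes lay there below their non-neural levels, 35.9 and 56.4 CPM for Slc17a6 and 116.8 and 87.8 CPM for Gad2. By share of nuclei, cluster 5 held Slc17a6 in 3.9% and 6.98% and Gad2 in 9.02% and 11.1%. The non-neural shares without the highest doublet scores were 6.86% and 4.14% for Slc17a6 and 10.3% and 6.51% for Gad2. Against these, the knockout-labelled shares of cluster 5 were higher and the others lower. These 2 ratios are therefore not told apart from background. In cluster 17 the Slc17a7 levels were 31.5 and 9.29 CPM, from 25 and 5 UMIs, a ratio of −1.76 (−3.50 to −0.35). In cluster 9, led by 6530403H02Rik and Tafa1, its levels were 22.3 and 27.8 CPM with a ratio of 0.32 (−0.76 to 1.39). Over all nuclei Slc17a6 was slightly higher, at 112 CPM (108 to 118) and 123 CPM (118 to 128), a ratio of 0.13 (0.04 to 0.22). Gad2 was slightly lower, at 220 CPM (213 to 227) and 197 CPM (191 to 203), a ratio of −0.16 (−0.22 to −0.09). Gad1, at 98.1 and 95.5 CPM, had a ratio of −0.04 (−0.13 to 0.06).

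Other genes of transmitter handling were read from a list of 36. Of the 19 with at least 100 UMIs, 5 were higher under the knockout label by 1.5-fold or more and 0 lower by as much, with a median log2 ratio of 0.20. Among 5 cholinergic genes so measured, 3 were higher: Slc5a7 (2.14-fold, 1.47 to 3.18), Ache, which breaks down acetylcholine (1.53-fold, 1.12 to 2.11), and the forebrain cholinergic factor Lhx8 (1.94-fold, 1.51 to 2.51). The GABA transporter gene Slc6a11, with 206 and 402 UMIs, stood 1.69-fold higher (1.42 to 2.01), and the synaptic vesicle gene Sv2c, with 193 and 459, stood 2.06-fold higher (1.74 to 2.45). Abat, which breaks down GABA, at 41.8 and 44.4 CPM, had a log2 ratio of 0.09. The noradrenaline and serotonin genes were too sparse to compare, with 1 and 9 UMIs of Dbh and 4 and 15 of Tph2.

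Across the 23 clusters with at least 50 nuclei, the genes most like each member by Pearson correlation of log2(CPM + 10) were listed as a description, and the clusters share libraries and depth. Slc17a6 went most closely with Nrn1 (r = 0.91), and Slc17a7 with Neurod2 (r = 0.92), a factor of cortical excitatory neurons. Gad1, Gad2 and Slc32a1 all went most closely with Gm14204, with r of 0.95, 0.96 and 0.89, the long noncoding gene opposite Slc32a1. Slc18a2 went with Gm45680 (r = 0.71) and B020031H02Rik (r = 0.70), both leading genes of cluster 14. The closest genes to Slc6a5 were Samd3 (r = 0.72) and Sim1 (r = 0.69), and to Slc17a8 C330002G04Rik, Cfap47 and Dnah7c (r = 0.78 each). These 2 members gave few UMIs in any single cluster other than cluster 6, so their correlations rest on thin counts. Among these clusters Slc17a8 was highest in the choroid plexus epithelium-like cluster 21, at 10.1 CPM from 6 and 2 UMIs. Slc6a5 was highest in the Cajal-Retzius cell-like cluster 8, at 8.54 CPM from 0 and 6 UMIs.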

How the data were processed

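Both deposited tables are raw UMI counts that were never normalized; per the file headers the authors used Cell Ranger 6.1.1 to make them, while the submitters' processing notes name Cell Ranger 3.0.1, STAR and GRCm39. The annotation, intron counting and strand setting are not given in the sources used here. No barcode held under 500 UMIs. The members and lists were chosen with earlier results of these data known.

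Levels are a gene's UMIs per 1000000 of the nuclei summed (CPM), and ratios are knockout-labelled over wildtype-labelled. A nucleus counted for a transmitter with at least 1 UMI of its genes. Scrublet's own threshold marked 0 nuclei in both libraries and had not worked, so doublets were kept and the 535 and 534 nuclei with the highest scores were left out as an alternative. Clusters came from scanpy 1.11.5 (2000 variable genes without the members, 30 components, 15 neighbours, Leiden resolution 1, no correction between libraries). For each cluster the list with the largest share of markers raised 2-fold (at least 3) was tried. It gave the name X-like if 50% of the list was raised or a marker was among the 10 leading genes, and no other list held more of those. The erythroid name also needed 50% of UMIs from haemoglobin genes. These thresholds were set after the clusters were seen. This kept 7 clusters unnamed, among them cluster 0, the shallowest (9.45% and 14.6% of nuclei), led by haemoglobin and ribosomal genes with 0.486% and 10.3% of its UMIs, and cluster 6 (12.6% and 21.2%). By Ensembl identifier, 54749 of 55416 features (98.8%) matched GENCODE M39. The ratio and its interval were run on simulated library sums drawn from a Poisson law, which the interval itself assumes. That run checks the calculation only and does not cover UMIs concentrated in few nuclei. Genes are named by the member list, the 36 listed pathway genes and the 3 closest genes per member; some of these are not reported here.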

Additional observations from a re-analysis of the deposited data

Results flagged for a closer look

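Gad1 and Gad2 had ratios of opposite sign in different classes of nuclei. Gad1 had a log2 ratio (knockout-labelled over wildtype-labelled) of 0.53 in pallial nuclei and −0.18 in Dlx-marked nuclei. Gad2 had 0.31 in pallial, −0.12 in Dlx-marked and −0.40 in Gata/Tal nuclei. The counting interval of each of these ratios left out 0, and the differences between classes were not tested. The pallial shares of nuclei with Gad2, 9.55% and 13.2%, lay at or near those of the non-neural clusters. The same held for Gad1, at 5.62% and 8.56% of pallial nuclei against 7.94% and 8.26% of non-neural nuclei.

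The members were also counted in the 3077 wildtype-labelled and 4131 knockout-labelled barcodes that were left out. Slc17a6 stood there at 46.65 and 58.64 CPM, and Gad2 at 79.74 and 89.49 CPM. Slc32a1 stood at 53.7 and 51 CPM in these barcodes, above the 23.4 and 31.9 CPM of the kept nuclei.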

How the results depend on the processing

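Of 189 values recomputed under other settings, 159 were counted as unchanged and 30 as moved. For ratios and shares of nuclei, moved means outside the counting interval of the main value. The counts of shared closest genes have no such interval. A change of sign occurred in 7 values of 3 results, each with a main interval that held 0. The GABA share difference, 0.658 points, was −0.884 with at least 200 genes and −0.349 thinned to 1000 UMIs. The monoamine share difference, 0.261 points, was −0.274 (200 genes), −0.391 and −0.306 (thinned to 1000 and 2000) and −0.0133 (at least 2 UMIs), and the Gad1 log2 ratio, −0.04, was 0.02 with at least 1000 genes. The Slc17a6 ratio in pallial nuclei was 0.41 with at most 1% mitochondrial UMIs. The glutamate shares differed by 0.321 points with at least 200 genes. For GABA it was 3.32 points with at least 1000 genes and 2.77 without the shallowest cluster, an alternative chosen after seeing the data. The glycine difference was 0.594 (200 genes), 0.573 (without nuclei with a Hox UMI, chosen after seeing the data), 0.413 and 0.587 (thinned to 1000 and 2000 UMIs) and 0.329 points (at least 2 UMIs), and the acetylcholine difference was 0 with at least 2 UMIs. The share of GABA nuclei with a glutamate gene, 11.6% in the wildtype-labelled library, was 13.3% (1000 genes), 13.4% (1% mitochondrial), 9.65% (doublets removed), 3.49% and 8.08% (thinned to 1000 and 2000) and 4.16% (at least 2 UMIs). In the knockout-labelled library, where it was 15.7%, it was 13.9% (200 genes), 17.7% (1000 genes), 17.9% (1% mitochondrial), 3.87% and 9.33% (thinned) and 7.1% (at least 2 UMIs). Of the 24 closest genes, 10 and 14 recurred at resolution 0.5 and 2, 7 and 12 with minimums of 200 and 1000 genes, 13 with 1% mitochondrial UMIs and 14 with doublets removed. With a minimum of 20 UMIs, 5.87% of genes were higher and 3.39% lower. Beyond thinning, which lowers depth, the causes were not tested. No paired analysis was possible because each label has 1 library.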
